A study of Mus musculus with 23 samples.

Results

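Acyl-CoA thioesterases hydrolyse acyl-CoA esters, the activated form in which fatty acids are built into lipids or oxidised, and so release a free fatty acid and coenzyme A. They work in separate compartments of the cell, and the enzymes of brown adipose tissue (BAT) act beside the acyl-CoA synthetases, which run the opposite reaction, and the carnitine shuttle, which carries acyl groups into mitochondria for oxidation. BAT burns fatty acids for heat when noradrenaline reaches brown adipocytes in the cold, and free fatty acids also activate the uncoupling protein UCP1. Transcripts of 8 of these enzymes are described here: Them4, Acot1, Acot2, Acot4, Acot7, Acot9, Acot11 and Acot13, found by symbol among the 14651 genes of the table. The 8 genes were selected on the values described below, because an earlier pass over these libraries showed higher Them4 in the cold and differing directions among the others. Their differences by cold and by genotype are therefore a description, without a test, and support nothing beyond the values themselves.

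RNA was sequenced from BAT of 23 male mice aged 8 to 12 weeks, on a largely C57BL/6 background. The floxed line came from embryonic stem cells of mixed background and was crossed to C57BL/6J until most of it was uniform. Both genotypes carried the floxed Mcu allele on both chromosomes (Mcu fl/fl, exon 2 between LoxP sites). Control animals had no Cre, whereas BAT-Mcu-KO animals (Mcu fl/fl;Ucp1-Cre) carried the Ucp1-Cre transgene. It is driven by the Ucp1 promoter, so that deletion was limited to cells that use this promoter. In comparisons of genotype, loss of Mcu and presence of the transgene cannot be told apart. Animals of each genotype were kept at room temperature (RT, 6 control and 6 BAT-Mcu-KO mice) or placed at 4°C for 6 h (5 control and 6 BAT-Mcu-KO mice). Mice at 4°C were kept singly and without food or bedding, and the food access of the RT mice of this experiment is not given in the sources used here, so cold, food withdrawal and housing cannot be told apart. Libraries held 7129271 to 21006347 reads assigned to genes. Values are normalised counts, that is reads per gene divided by a scaling factor for each library, and differences are given on the scale log2(normalised count + 1), as log2 fold changes with the standard error (SE) of a limma fit to all libraries.

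The labels were checked first. Mcu, the targeted gene, ranged from 70.8 to 136.0 normalised counts in control libraries and from 15.2 to 42.4 in BAT-Mcu-KO libraries, so the genotypes did not overlap (limma adjusted p = 0.0010 at RT and 0.0037 at 4°C). Ucp1 was 2.59-fold higher at 4°C in control mice and 2.77-fold higher in BAT-Mcu-KO mice, and Ppargc1a and Dio2, which noradrenaline induces in brown adipocytes, rose by 5.10 and 5.19 on the log2 scale in control mice and by 4.33 and 4.96 in BAT-Mcu-KO mice. All 10 brown adipocyte markers were measured, with none at 0 in any library, and their summed level was 193623 to 279141 at RT and 277761 to 340104 at 4°C. Ucp1 alone went from a mean of 63858 to one of 165205 in control mice. By limma 3 of the 10 were higher and 5 lower in control mice, with a median log2 fold change of -0.28, whereas BAT-Mcu-KO mice had 3 higher and 2 lower, with a median of 0.0018. The summed level of 8 skeletal muscle markers varied widely between mice of every group, from 7.47 to 46130 over all libraries, and none of the 8 differed by cold or genotype in limma, at an adjusted or an unadjusted p under 0.05. The summed level of 6 macrophage markers was 501 to 961 at RT and 681 to 1271 at 4°C. That of 5 endothelial markers was 2713 to 4107 at RT and 4508 to 7626 at 4°C, and that of 6 measured nerve and Schwann cell markers was 1707 to 3130 at RT and 3411 to 4624 at 4°C. By limma 1 macrophage marker was higher at 4°C in control mice and 4 in BAT-Mcu-KO mice, 2 endothelial markers were higher in each genotype, led by Kdr with 1.16 and 1.11 on the log2 scale, and 1 nerve and Schwann cell marker was higher in each, Pmp22 with 1.63 and 1.45. Lower at 4°C were 1 endothelial marker in control mice (Emcn, -0.42) and, among nerve and Schwann cell markers, S100b in both genotypes (-0.90 and -0.48) and Mbp in BAT-Mcu-KO mice (-0.29), so that the median of the nerve and Schwann cell markers was -0.24 and -0.39 in these genotypes. The part of these cell types in the differences below was not tested, and in tissue RNA fewer cells of a type and less RNA per cell cannot be told apart.

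A cluster of 6 thioesterase genes lies on the plus strand of chromosome 12, and 3 of the 8 described here are among them. In order, with GENCODE M21 coordinates on GRCm38, these are Acot2 at chr12:83987861-83993873, Acot1 at chr12:84009490-84018371, Acot4 at chr12:84038379-84048601, Acot3 at chr12:84052144-84060402, Acot5 at chr12:84069325-84076020 and Acot6 at chr12:84100654-84111349. Reads were 25 bases long at each end and only uniquely mapping pairs were counted, so a pair that lay wholly within sequence shared by neighbours was counted for none of them. The most alike run of 75 aligned bases within a single coding exon is shown to make this visible, from the GENCODE M21 transcripts, with the bases that differ among the 6 genes in capitals.
Acot2: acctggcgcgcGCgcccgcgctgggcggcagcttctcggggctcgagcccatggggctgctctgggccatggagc
Acot1: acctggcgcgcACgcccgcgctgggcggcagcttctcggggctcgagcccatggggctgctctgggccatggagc
Acot4: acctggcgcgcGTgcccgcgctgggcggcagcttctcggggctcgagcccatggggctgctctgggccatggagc

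These stretches lie at chr12:83988206-83988280 for Acot2, chr12:84009691-84009765 for Acot1 and chr12:84038692-84038766 for Acot4, in exon 1 of each. Acot3, Acot5 and Acot6 carry the same 75 bases as Acot1, and the last 62 bases are the same in all 6 genes. Over the whole coding sequence Acot1 and Acot2 were 95.3% identical over 1236 aligned bases, and the other pairs of the cluster were 72.8% to 85.4% identical. Of the 25-base words in the transcripts of Acot2, 42.5% also occurred in a transcript of another gene, mostly Acot1, and the share was 24.3% for Acot1, 12.3% for Acot4, 14.5% for Acot3, 33.4% for Acot5 and 9.26% for Acot6. Acot9, on chromosome X, shared 34.0% of its words, mostly with Acot10, an intronless copy on chromosome 15. Levels of Acot1, Acot2 and Acot9, and to a lesser degree Acot4, are therefore less certain than those of Them4, which shared 1.28%, of Acot11, which shared 0.769%, and of Acot7 and Acot13, which shared none. Counting ignored strand, so reads of Acot4 and Acot3 cannot be told from those of 4732463B04Rik on the opposite strand where exons overlap, which holds for 615 of 6674 exon bases of Acot4 and 312 of 3438 of Acot3.

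Them4 encodes a thioesterase of the mitochondrion that prefers long-chain acyl-CoA, and its gene lies at chr3:94310089-94332540 on the plus strand. At RT it had 147.0 to 208.6 normalised counts in control mice, with a median of 184.6, and 155.0 to 199.8 in BAT-Mcu-KO mice, with a median of 161.4. At 4°C the 5 control libraries had 550.2, 560.0, 577.5, 551.0 and 535.6, and the 6 BAT-Mcu-KO libraries had 579.9 to 705.2, with a median of 619.0. Every library at 4°C lay above every library at RT. The mean was 3.06-fold higher at 4°C in control mice (log2 fold change 1.62 ± 0.09 SE) and 3.73-fold higher in BAT-Mcu-KO mice (1.90 ± 0.09 SE). The groups at 4°C were narrow, with an SD of 15.4 around a mean of 554.8 in control mice and of 43.7 around 628.2 in BAT-Mcu-KO mice. The log2 fold change of Them4 by cold was recomputed over 36 settings of the analysis, the one reported here included. It kept between 1.51 and 1.66 in control mice and between 1.84 and 1.95 in BAT-Mcu-KO mice. Some settings, such as leaving out a library of the other genotype, could not alter it. With the skeletal muscle marker sum as a covariate, chosen after seeing the data, it was 1.62 and 1.89.

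At 4°C all 6 BAT-Mcu-KO libraries were above all 5 control libraries for Them4, with the highest control library at 577.5 and the lowest BAT-Mcu-KO library at 579.9. The difference between genotypes was 0.18 on the log2 scale (95% interval -0.02 to 0.37), whereas at RT it was -0.10 (-0.28 to 0.08). The difference by cold was larger in BAT-Mcu-KO than in control mice by 0.28 (95% interval 0.01 to 0.54). These intervals are not adjusted for the number of genes, and limma passed 0 of 14651 genes for this last difference. Groups of the same sizes did not overlap for 0.683% of all genes at 4°C and for 0.218% at RT, and Them4 was the only one of the 8 genes with groups apart by genotype, at 4°C only.

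**Figure D1:**
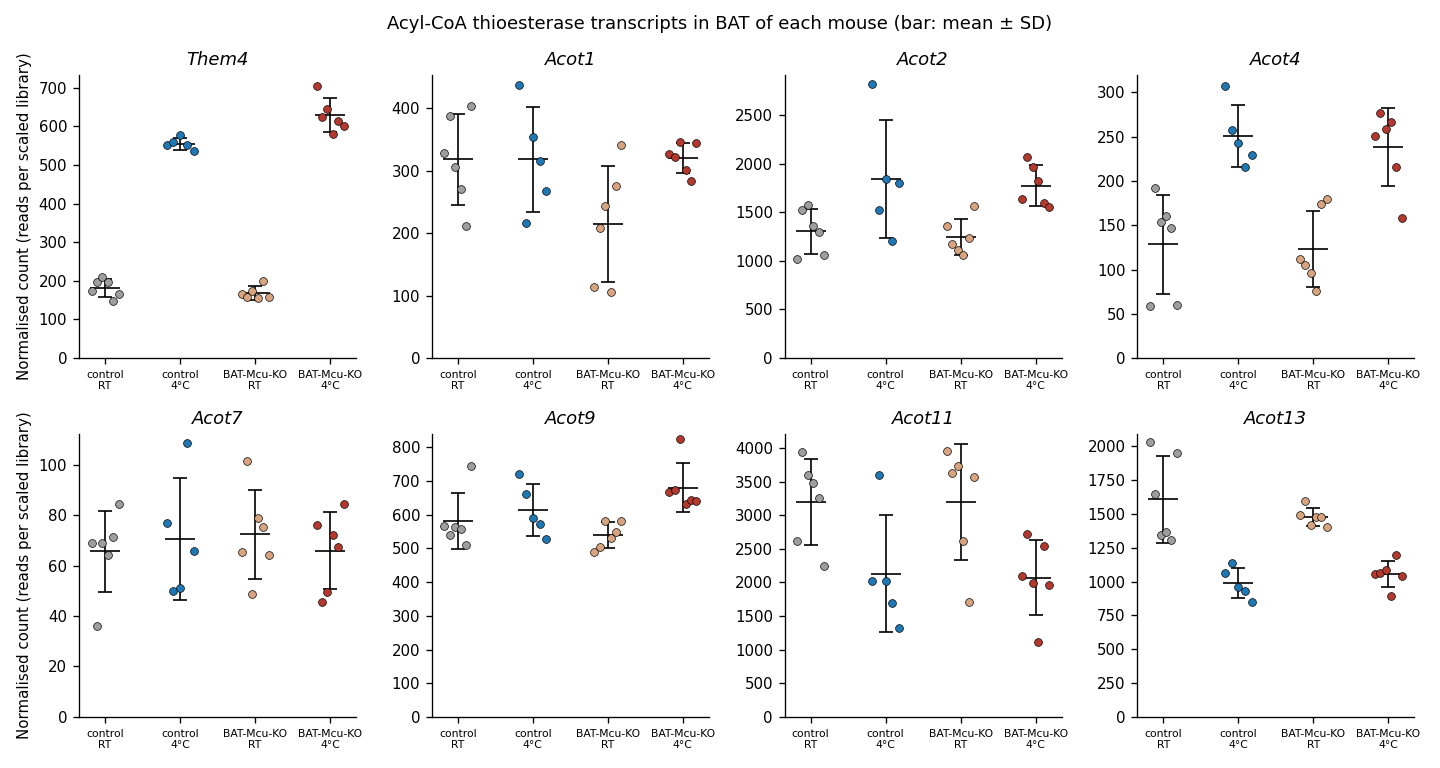
Normalised count of each of the 8 genes (vertical axes, each from 0) in each mouse of the 4 groups, with 1 point per mouse and bars for the mean ± SD. The Them4 points at 4°C lie between 535.6 and 705.2, above all RT points, Acot13 lies lower at 4°C with no overlap in either genotype, and the groups of Acot7 overlap throughout.

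The genes whose pattern was closest to that of Them4 were Slc25a17, Tnfrsf1a, Crem, Helq and Apmap. Closeness was the root mean square difference between the log2 values of the genes over the 23 libraries, each taken relative to its own mean in control mice at RT. It was 0.20 for Slc25a17, which encodes a peroxisomal carrier, 0.20 for Tnfrsf1a, which encodes a receptor for tumour necrosis factor, and 0.20 for Crem, which encodes a transcription factor of the cAMP response. It was 0.22 for Helq, a DNA helicase, and 0.23 for Apmap, an adipocyte membrane protein, against a median of 1.29 over all genes. All 5 had a log2 fold change by cold between 1.47 and 1.65 in control mice and between 1.54 and 1.79 in BAT-Mcu-KO mice, as the measure picks genes with a difference of that size.

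Acot2, Acot1 and Acot4 are close relatives whose products sit in different places: Acot2 in the mitochondrial matrix, Acot1 in the cytosol and Acot4 in peroxisomes, where it also handles dicarboxylic acyl-CoA such as succinyl-CoA. Acot2 had 1017 to 1576 normalised counts at RT in control mice, with a median of 1329, and 1056 to 1560 in BAT-Mcu-KO mice, with a median of 1205. At 4°C it had 2824, 1524, 1846, 1201 and 1797 in control mice and 1551 to 2071 in BAT-Mcu-KO mice, with a median of 1728. The groups overlapped: 3 of 5 control libraries and 5 of 6 BAT-Mcu-KO libraries at 4°C lay above all RT libraries of their genotype. The difference by cold was 0.45 ± 0.16 SE in control mice and 0.51 ± 0.15 SE in BAT-Mcu-KO mice. A single control mouse at 4°C, replicate 1, had 2824, and without it the difference in control mice was 0.29.

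Acot4 had 58.5 to 192.0 normalised counts at RT in control mice, with a median of 150.4, and 76.2 to 179.6 in BAT-Mcu-KO mice, with a median of 108.1. At 4°C it had 307.5, 258.0, 242.7, 216.0 and 229.3 in control mice and 158.5 to 277.1 in BAT-Mcu-KO mice, with a median of 255.0. Control groups did not overlap, and 5 of the 6 BAT-Mcu-KO libraries at 4°C lay above all those at RT. The mean was 1.95-fold higher at 4°C in control mice (1.09 ± 0.27 SE) and 1.93-fold higher in BAT-Mcu-KO mice (0.98 ± 0.26 SE), after Them4 the next difference by size among the 8 genes in both genotypes.

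Acot1 differed from its neighbours. In control mice it had 211.2 to 403.2 normalised counts at RT, with a median of 317.0, and 436.9, 215.5, 353.5, 315.9 and 267.8 at 4°C. The means were the same to the nearest count, 317.9 and 317.9, and the difference was -0.01 ± 0.24 SE. In BAT-Mcu-KO mice it had 105.7 to 341.5 at RT, with a median of 225.4, and 283.6 to 345.1 at 4°C, with a median of 324.2, a difference of 0.70 ± 0.23 SE. The RT libraries of BAT-Mcu-KO mice were spread widely, with 113.0 and 105.7 in replicates 1 and 4, and only 2 of the 6 libraries at 4°C lay above all of them. The difference by cold was larger in BAT-Mcu-KO mice by 0.71 (95% interval 0.03 to 1.39), and between genotypes at RT Acot1 differed by -0.66 (-1.13 to -0.19). Neither interval is adjusted for the number of genes, and limma passed Acot1 in neither comparison.

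Acot3, Acot5 and Acot6, whose products are assigned to peroxisomes, complete the cluster and were not among the 8 genes. The fit over all genes is given for them with its adjusted p. Their list was also drawn up with earlier results of these libraries known, so these p-values describe and do not test. Acot5 had 0.97 to 5.66 normalised counts at RT in control mice, which is 1 to 6 reads per library, and 0 to 10.9 in BAT-Mcu-KO mice, which is 0 to 11 reads. At 4°C it had 661.4, 292.9, 455.5, 307.1 and 383.3 in control mice and 105.1 to 986.5 in BAT-Mcu-KO mice, with a median of 425.5. Every library at 4°C held at least 126 reads, and the groups did not overlap by temperature in either genotype. The authors kept genes above a minimum number of reads in at least 6 libraries, which Acot5 met only through its 4°C libraries. Its place in the table thus rests on this contrast, and its adjusted p below is a description. Acot5 rose by 6.74 ± 0.57 SE on the log2 scale in control mice (limma adjusted p = 5.85e-10) and by 7.01 ± 0.54 SE in BAT-Mcu-KO mice (adjusted p = 1.37e-10). Those values depend on the pseudocount, since RT counts were near 0: DESeq2 on the recovered reads, with no pseudocount, gave 6.99 and 7.10, and a pseudocount of 10 gave the lowest values over all settings in both genotypes, 4.97 and 4.89.

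Acot6 rose by 1.64 ± 0.20 SE in control mice, from a mean of 28.9 ± 7.73 (SD, n = 6) to one of 91.0 ± 19.4 (SD, n = 5) normalised counts (limma adjusted p = 1.79e-07), and by 1.41 ± 0.19 SE in BAT-Mcu-KO mice (adjusted p = 9.50e-07). Acot3, which lies between Acot4 and Acot5, went the other way. It had 30.4 to 66.1 normalised counts at RT in control mice and 18.2, 0, 14.9, 2.20 and 4.81 at 4°C, with no overlap, and fell by 2.87 on the log2 scale (limma adjusted p = 0.00071). In BAT-Mcu-KO mice Acot3 had 11.3 to 55.3 at RT and 0.77 to 25.6 at 4°C, with overlap, and fell by 1.67 (limma adjusted p = 0.030). That call was lost without BAT-Mcu-KO RT replicate 2, 5 or 6 (adjusted p = 0.059, 0.060 and 0.072) and without BAT-Mcu-KO 4°C replicate 5 or 6 (0.098 and 0.065). Acot3 had at most 39 reads in a library at 4°C, so its level there was set by few reads. It did not meet the authors' read filter by its 4°C libraries alone, so its place in the table rests on its RT libraries.

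**Figure D2:**
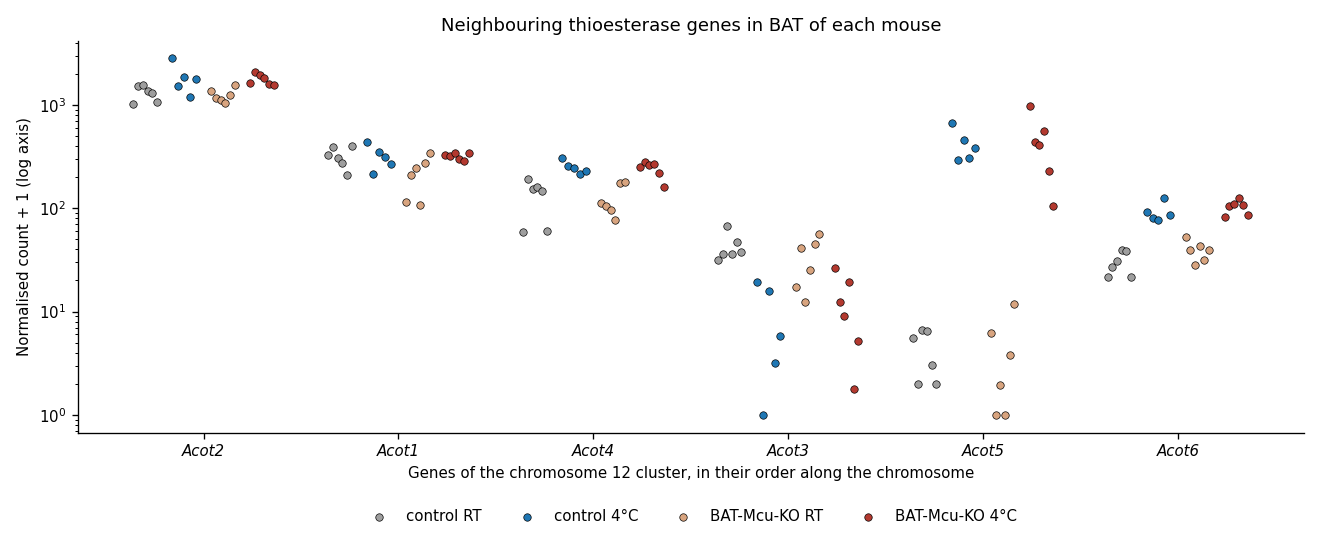
Normalised count + 1 on a log axis for the 6 genes of the chromosome 12 cluster, in their order along the chromosome, with 1 point per mouse in the 4 groups. Acot5 moves from at most 10.9 counts at RT to at least 105.1 at 4°C, Acot3 lies lower at 4°C, and Acot1 shows overlapping groups.

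Promoter windows of Them4, Acot4, Acot3 and Acot5 are shown: Them4 and Acot4 lay furthest apart by cold among the 8 genes, and Acot5 and Acot3, neighbours of Acot4, moved furthest up and down in the cluster. The windows are the 250 bases before the start of the RefSeq transcript (GRCm38.p6), where 7 of the 8 genes had an entry, and for Them4 the last 43 of them, which GENCODE places within the transcript, are left out. Capitals mark matches, on either strand, to the letters TGACG (the half-site of the cAMP response element, also part of the full site TGACGTCA), AGGTCA (a half-site of nuclear receptors), CCAAT (the CCAAT box), GGGCGG (a GC box), CACGTG (an E-box) and TGACNNNGC (the core of the antioxidant response element). A second listed window of Acot3 and of Acot5, shifted by a few bases, held the same matches.
Them4, chr3:94309882-94310088, plus strand: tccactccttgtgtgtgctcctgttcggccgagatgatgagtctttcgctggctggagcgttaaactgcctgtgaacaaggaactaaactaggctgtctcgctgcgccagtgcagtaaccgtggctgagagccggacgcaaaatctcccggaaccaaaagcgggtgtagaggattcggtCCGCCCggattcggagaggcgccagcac
Acot4, chr12:84038129-84038378, plus strand: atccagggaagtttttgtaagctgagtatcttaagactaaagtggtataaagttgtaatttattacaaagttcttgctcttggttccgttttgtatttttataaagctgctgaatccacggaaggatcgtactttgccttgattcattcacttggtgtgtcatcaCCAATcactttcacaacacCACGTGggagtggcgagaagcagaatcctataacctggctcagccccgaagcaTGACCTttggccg
Acot3, chr12:84051894-84052143, plus strand: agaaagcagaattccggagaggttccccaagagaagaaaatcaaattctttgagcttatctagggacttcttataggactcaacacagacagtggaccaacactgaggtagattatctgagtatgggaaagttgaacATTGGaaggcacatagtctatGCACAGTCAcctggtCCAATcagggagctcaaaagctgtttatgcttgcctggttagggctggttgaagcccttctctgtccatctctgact
Acot5, chr12:84069074-84069323, plus strand: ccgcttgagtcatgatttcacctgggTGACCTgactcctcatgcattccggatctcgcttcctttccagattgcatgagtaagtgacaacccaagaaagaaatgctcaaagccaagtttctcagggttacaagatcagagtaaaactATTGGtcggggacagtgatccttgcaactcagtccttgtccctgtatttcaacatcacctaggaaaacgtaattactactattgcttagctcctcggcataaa

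The windows of Acot4 and Acot5 each held 1 match to AGGTCA, 8 and 219 bases before the start, and those of Acot3 and Them4 held none. That half-site was in 14.0% of 32851 such windows of mouse transcripts. The full cAMP response element, in 1.55% of all windows, was not found in these 4 windows, and its half-site TGACG, in 17.8% of all windows, was not found there either but lay 113 bases before the start of Acot2. CCAAT, in 33.8% of all windows, was found in a window of 5 of the 7 genes with an entry (Acot1, Acot2, Acot4, Acot9 and Acot11) and in those of Acot3 and Acot5. The GC box was found 4 times in the full window of Them4 and in 32.7% of all windows. The match of Acot3 to TGACNNNGC has a background of 10.2%, and that of Acot4 to CACGTG one of 6.02%. These are matches of letters, not sites of binding.

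Acot13 and Acot11 lay lower at 4°C. Acot13 encodes a small thioesterase of mitochondria and cytosol, at chr13:24817948-24831540 on the minus strand. It had 1307 to 2034 normalised counts at RT in control mice, with a median of 1506, and 1405 to 1591 in BAT-Mcu-KO mice, with a median of 1476. At 4°C it had 1064, 1135, 960.8, 930.7 and 850.0 in control mice and 891.8 to 1194 in BAT-Mcu-KO mice, with a median of 1060. All libraries at 4°C lay below all those at RT in both genotypes. The mean at 4°C was 0.615 of that at RT in control mice (-0.69 ± 0.11 SE) and 0.715 of it in BAT-Mcu-KO mice (-0.49 ± 0.10 SE).

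Acot11, a thioesterase for long-chain acyl-CoA, lies at chr4:106744555-106804998 on the minus strand. It had 2244 to 3946 normalised counts at RT in control mice, with a median of 3367, and 1717 to 3963 in BAT-Mcu-KO mice, with a median of 3598. At 4°C it had 2029, 3598, 2017, 1701 and 1315 in control mice and 1120 to 2717 in BAT-Mcu-KO mice, with a median of 2044. The spread was wide and the groups overlapped, with 4 of 5 control libraries but 1 of 6 BAT-Mcu-KO libraries at 4°C below all RT libraries. The difference by cold was -0.64 ± 0.24 SE in control mice and -0.63 ± 0.23 SE in BAT-Mcu-KO mice. The control library at 3598 was replicate 2, and without it the difference was -0.85. Fam151a overlaps 1263 of the 6056 exon bases of Acot11 on the opposite strand and has no row in the table.

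Acot9 and Acot7 differed least by cold in control mice, beside Acot1. Acot9, a mitochondrial thioesterase with broad chain-length preference at chrX:155262443-155297654 on the plus strand, had 511.5 to 743.9 normalised counts at RT in control mice, with a median of 561.3, and 722.1, 661.7, 589.9, 572.3 and 527.6 at 4°C. These groups overlapped, with a difference of 0.08 ± 0.10 SE. In BAT-Mcu-KO mice Acot9 had 488.4 to 582.4 at RT, with a median of 540.3, and 632.0 to 824.4 at 4°C, with a median of 654.8. There the groups did not overlap, with a difference of 0.33 ± 0.09 SE, and the difference by cold was larger in BAT-Mcu-KO mice by 0.25 (95% interval -0.03 to 0.53), which includes 0. Acot7, best known from brain, lies at chr4:152178134-152271855 on the plus strand. It had 35.9 to 84.4 normalised counts at RT and 50.1 to 108.7 at 4°C in control mice, and 48.8 to 101.3 at RT and 45.6 to 84.3 at 4°C in BAT-Mcu-KO mice. The groups overlapped, with a difference by cold of 0.09 ± 0.23 SE in control mice and -0.13 ± 0.22 SE in BAT-Mcu-KO mice, and these values rest on 31 to 148 reads per library.

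**Figure D3:**
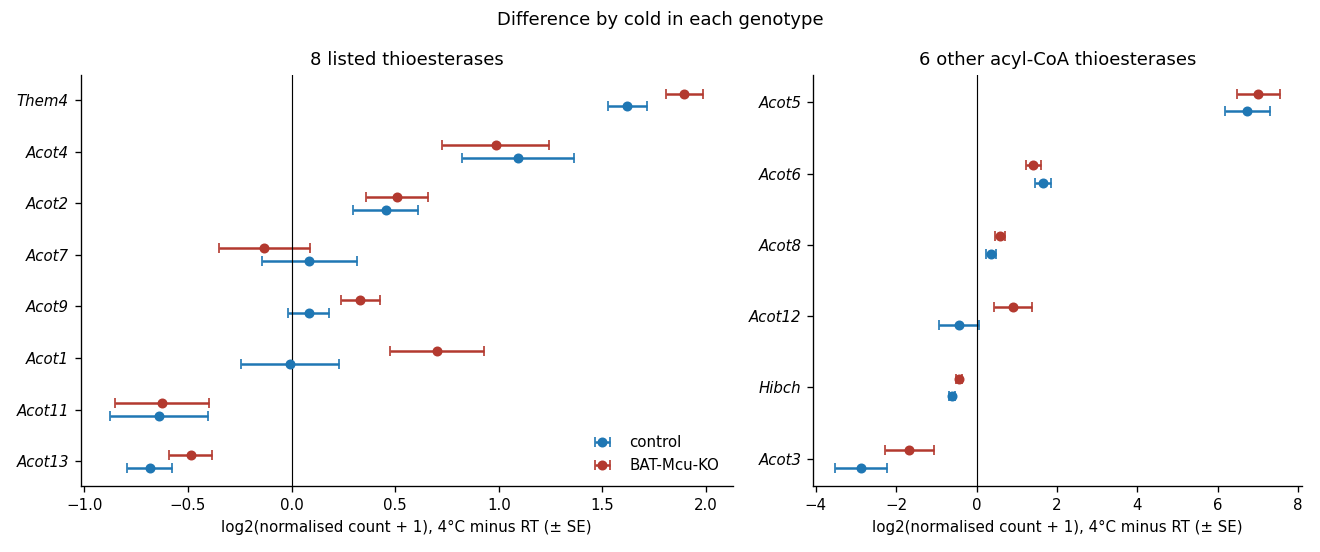
Difference in log2(normalised count + 1) between 4°C and RT (horizontal axes, points with SE bars) in control and BAT-Mcu-KO mice for the 8 genes (left) and for the 6 other measured acyl-CoA thioesterases (right, on a wider axis). Them4 lies at 1.62 and 1.90, Acot13 and Acot11 lie below 0 in both genotypes, and Acot5 lies at 6.74 and 7.01.

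Counted in the fit over all genes, 5 of the 8 genes passed an adjusted p under 0.05 for cold in control mice and 7 of 8 in BAT-Mcu-KO mice, against 46.0% and 43.3% of all genes tested. In control mice 3 were higher and 2 lower at 4°C, against 22.3% and 23.7% of all genes. In BAT-Mcu-KO mice 5 were higher and 2 lower, against 21.4% and 21.9% of all genes. Groups did not overlap by temperature for 3 of the 8 genes in control mice (Them4, Acot4 and Acot13) and for 3 in BAT-Mcu-KO mice (Them4, Acot9 and Acot13), against 25.2% and 24.2% of all genes. The median log2 fold change of the 8 genes was 0.08 in control mice and 0.42 in BAT-Mcu-KO mice, and that of all genes was -0.02 in both. As the genes were selected on this contrast, nothing is read from these counts.

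By genotype no difference of the 8 genes passed. At RT the limma fit passed 7 genes (0.0478% of all tested) and none of the 8, and 1 of the 8, Acot1, had an unadjusted p under 0.05, as had 754 genes in all. DESeq2 on the recovered reads passed 20 genes and edgeR 7, again with none of the 8. At 4°C the limma fit passed 11 genes (0.0751%), DESeq2 27 and edgeR 6, with none of the 8 in any of the 3, and 0 of the 8 genes and 1023 genes in all had an unadjusted p under 0.05 in limma. For the difference between genotypes in the difference by cold, limma passed 0 of 14651 genes (0%), with 878 at an unadjusted p under 0.05, among them 2 of the 8 genes. DESeq2 passed 28 there, none of them among the 8, and edgeR 0. In DESeq2 and in edgeR 1 of the 8 had an unadjusted p under 0.05 there. At RT the differences between genotypes ranged from -0.66 for Acot1 to 0.15 for Acot7, and at 4°C from -0.09 for Acot4 to 0.18 for Them4. The 95% intervals at 4°C reached from -0.64 (Acot4) to 0.54 (Acot1), so differences of that size between genotypes could not be told from the spread of these mice.

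Of the other acyl-CoA thioesterases, 6 of 10 listed genes were measured, and limma passed 3 as higher and 2 as lower at 4°C in each genotype, with a median log2 fold change of -0.04 for control animals against 0.75 for BAT-Mcu-KO animals. Of all genes 22.3% were higher and 23.7% lower in the former, and 21.4% higher and 21.9% lower in the latter. Acot5, Acot6 and Acot8 rose and Acot3 and Hibch fell. As said above, Acot5 and Acot3 are in the table through the temperature where they were high. Acot8, the main peroxisomal thioesterase of broad specificity, averaged 162.2 ± 23.2 (SD, n = 6) normalised counts in control mice at RT, against 207.4 ± 31.8 (SD, n = 5) in the cold, a rise of 0.35 ± 0.13 SE (limma adjusted p = 0.025). That call was lost under both other scalings of the libraries, when the fit held only the groups compared, and without control RT replicate 5 or control 4°C replicate 2 or 5, with limma adjusted p from 0.052 to 0.12. The rise of 0.59 ± 0.12 SE in BAT-Mcu-KO mice (limma adjusted p = 0.00030) was kept in every setting run, with adjusted p up to 0.0012. Hibch, the hydrolase of valine breakdown that acts on 3-hydroxyisobutyryl-CoA, fell by 0.61 on the log2 scale in control mice (adjusted p = 1.17e-06) and by 0.43 in BAT-Mcu-KO mice (adjusted p = 7.03e-05), without overlap between the groups. Acot12, a cytosolic acetyl-CoA hydrolase known from liver, had 14.2 to 52.2 normalised counts in RT libraries of control mice and 11.8 to 43.6 in their cold libraries, and 2.69 to 65.1 and 27.5 to 60.7 in those of BAT-Mcu-KO mice. Its differences of -0.43 ± 0.50 SE and 0.91 ± 0.47 SE did not pass (limma adjusted p = 0.50 and 0.12), but without BAT-Mcu-KO RT replicate 5 the latter was 1.21 and passed (adjusted p = 0.038).

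Levels of different genes were compared only as normalised counts per kb of exon, summed over all exons of a gene in GENCODE M21. At RT in control mice the order was Acot13 with 2161 ± 432 (SD, n = 6) per kb, Acot2 with 595 ± 106, Acot11 with 527 ± 106, Acot9 with 256 ± 36.2, Acot1 with 81.1 ± 18.4, Them4 with 45.0 ± 5.78, Acot7 with 30.9 ± 7.58 and Acot4 with 19.3 ± 8.38. Neighbours in this order overlapped between Acot2 and Acot11, Them4 and Acot7, and Acot7 and Acot4, and the others were apart in all 6 libraries. The same order of means held at RT in BAT-Mcu-KO mice, but there Acot1 (27.0 to 87.1 per kb) and Them4 (38.5 to 49.6) overlapped too. In the cold Them4 stood above Acot1, with 138 ± 3.82 per kb against 81.1 ± 21.5 in control mice (SD, n = 5) and 156 ± 10.8 against 81.8 ± 6.18 in BAT-Mcu-KO mice (SD, n = 6), with no overlap, and Acot4 stood above Acot7, with overlap.

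Summed over the 8 genes, control mice had 3714 ± 337 (SD, n = 6) normalised counts per kb at RT, against 3077 ± 455 (SD, n = 5) in the cold. BAT-Mcu-KO mice had 3468 ± 187 at RT, against 3173 ± 243 in the cold (SD, n = 6 each), and the ranges overlapped by temperature in each genotype. Acot13 made up 50.8% to 67.5% of that sum in control libraries at RT and 38.7% to 47.5% in those at 4°C, with 52.1% to 61.1% and 41.8% to 48.2% in BAT-Mcu-KO libraries. Acot2 made up 11.4% to 20.2% and 20.6% to 34.8% in control libraries, and 14.6% to 19.6% and 21.9% to 29.7% in BAT-Mcu-KO libraries. Them4 made up 1.03% to 1.46% and 3.70% to 5.20% in control libraries, and 1.08% to 1.53% and 4.53% to 5.59% in BAT-Mcu-KO libraries. For these 3 genes the shares at RT and at 4°C did not overlap in either genotype. The same held for Acot9, with 5.97% to 8.20% and 8.59% to 9.57% in control libraries. In BAT-Mcu-KO libraries Acot9 made up 5.95% to 7.48% and 8.51% to 10.8%. A share also depends on the other genes of the sum: the difference by cold of Acot9 itself was 0.08 ± 0.10 SE in control mice. The normalised counts of Acot2 overlapped by temperature in both genotypes. Acot11 made up 9.29% to 16.8% at RT and 8.11% to 17.7% at 4°C in control libraries, which overlapped. Exon length was not corrected for the shared sequence given above, which can lower the values per kb of Acot2, Acot1 and Acot9. It can also lower those of Acot4, which had a smaller share of such words.

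**Figure D4:**
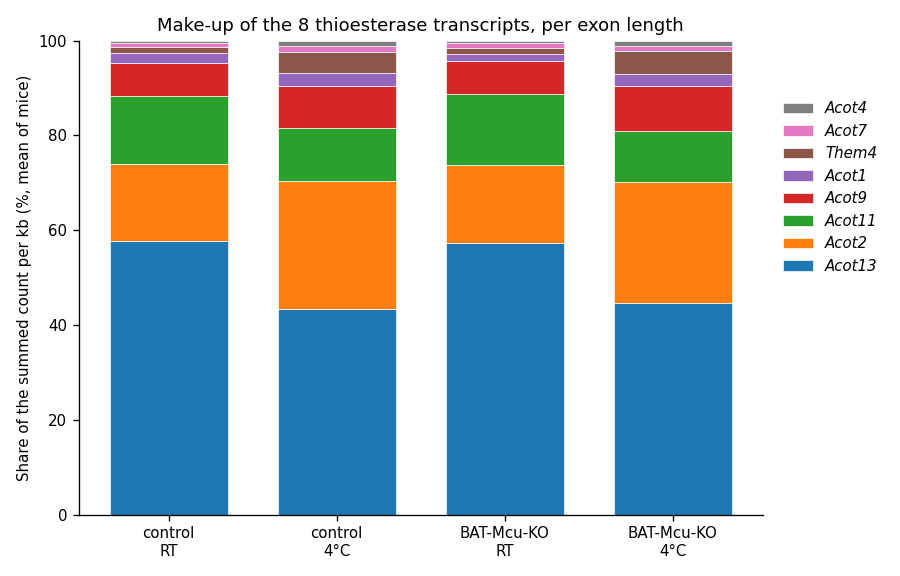
Share of each gene in the summed normalised count per kb of the 8 genes (vertical axis, %, mean over the mice of a group) in the 4 groups. Acot13 takes 57.8% at RT and 43.4% at 4°C in control mice, and Them4 takes 1.22% and 4.55%.

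Genes of the same pathway were read from lists of known function, which were drawn up with earlier results of these libraries known. The genes named from each list were picked for the largest rise or fall in control mice, so their adjusted p is a description. Each count is to be read against the shares of all genes that passed, 22.3% higher and 23.7% lower for control animals against 21.4% higher and 21.9% lower for BAT-Mcu-KO animals, and each median log2 fold change against -0.02 for all genes in both. Of 16 measured acyl-CoA synthetases, 3 rose and 6 fell in the cold in each genotype, with medians of 0.10 and 0.21. Acsl4, which prefers arachidonate, rose by 0.68 ± 0.15 SE in control mice (limma adjusted p = 0.00080) and by 0.43 ± 0.15 SE in BAT-Mcu-KO mice (adjusted p = 0.019). Acsm5, a medium-chain synthetase, fell by 1.80 (adjusted p = 0.00045) and by 1.58 (adjusted p = 0.0011). Of 8 measured genes of the carnitine shuttle 2 fell in control mice and 1 in BAT-Mcu-KO mice, shares near or below those of all genes, with medians of -0.14 and -0.03. Crot, the peroxisomal carnitine octanoyltransferase, fell in both genotypes, by 2.00 in control mice, from 927.3 to 241.3 normalised counts (adjusted p = 1.76e-09), and by 1.63 in BAT-Mcu-KO mice (adjusted p = 2.75e-08).

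Of 13 genes that make or break down coenzyme A, 2 rose and 10 fell in control mice and 3 rose and 8 fell in BAT-Mcu-KO mice, against 23.7% and 21.9% of all genes that were lower, with medians of -0.67 and -0.46. Pank1, a pantothenate kinase at the first step of coenzyme A synthesis, rose by 0.78 ± 0.13 SE (adjusted p = 3.07e-05) and by 0.94 ± 0.13 SE (adjusted p = 1.25e-06). Slc5a6, which carries pantothenate into cells, fell by 1.41 (adjusted p = 7.98e-07) and by 1.61 (adjusted p = 5.10e-08). Of 5 measured acyl-CoA binding proteins, 1 rose and 2 fell in control mice, and 2 fell in BAT-Mcu-KO mice, with medians of 0.10 and 0.03 and the same shares of all genes as background. Acbd6 rose by 0.86 ± 0.19 SE in control mice (adjusted p = 0.00048), and its difference of 0.23 ± 0.18 SE in BAT-Mcu-KO mice did not pass (adjusted p = 0.32). Acbd4 fell by 0.89 (adjusted p = 3.01e-07) and by 0.74 (adjusted p = 2.47e-06). Of 8 genes listed as protein thioesterases, many of which remove acyl groups from proteins, 3 fell in control mice, with a median of -0.18. In BAT-Mcu-KO mice 1 rose and 1 fell, with a median of -0.15. Of all genes 23.7% were lower in the former, and 21.4% higher and 21.9% lower in the latter. Ppt2, a lysosomal thioesterase placed in that list, fell by 1.21 (limma adjusted p = 8.38e-06) and by 1.55 (adjusted p = 1.22e-07).

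Acot1 and other thioesterases are known as targets of PPAR receptors, the nuclear receptors that sense fatty acids. Of 16 PPAR genes and targets, 5 rose and 6 fell in control mice and 6 rose and 2 fell in BAT-Mcu-KO mice, against 22.3% and 23.7% of all genes in the former and 21.4% and 21.9% in the latter, with medians of 0.02 and 0.04. Pdk4, the kinase that holds back pyruvate oxidation, rose by 1.32 ± 0.14 SE (adjusted p = 1.63e-08) and by 1.03 ± 0.13 SE (adjusted p = 4.21e-07). Vnn1, a pantetheinase, fell by 1.40 in control mice (adjusted p = 0.0019), and its difference of -0.72 ± 0.33 SE in BAT-Mcu-KO mice did not pass (adjusted p = 0.083). The lists overlap, as Vnn1 is also counted with coenzyme A breakdown, and over all lists together no gene passed for genotype in limma: of 106 genes, 4 had an unadjusted p under 0.05 at RT, 12 at 4°C and 6 for the difference between genotypes in the difference by cold.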

How the data were processed

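BAT RNA of 23 mice was made into Smart-seq2 libraries and read as pairs of 25 bases on a NextSeq instrument. The authors aligned reads to mm10 with GENCODE M7 using STAR 2.4.0j, counted uniquely mapping reads in exons with HTSeq irrespective of strand, kept genes above a minimum number of reads in at least 6 libraries and divided each library by its DESeq2 size factor. In the table, every gene had at least 9 recovered reads in its sixth-highest library. These normalised counts, a signal scaled per library, are the values as deposited. A second deposited table holds only the authors' own fold changes and p-values and was not used. No column of per-sample values was left unused. Groups were taken from the labels, and the study gives its group sizes in mice.

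Differences were fitted with limma 3.58.1 in R 4.3.3, with a variance trend, on log2(normalised count + 1), with 1 mean per group and all 23 libraries, and 5 contrasts: cold in each genotype, genotype at each temperature, and the interaction. The methods of the study used DESeq2 on raw counts, whereas the values here are normalised, so limma was the main test. P-values were adjusted by the Benjamini-Hochberg method over 14651 genes, and genes passed at an adjusted p under 0.05. Whole reads were recovered from the steps of low values (100% of values within 0.05 of a whole number in every library), and DESeq2 1.42.0 and edgeR 4.0.16 were run on them as alternatives, beside other pseudocounts, filters and scalings and leaving out each library in turn. A skeletal muscle marker covariate was added after seeing the data. The limma, DESeq2 and edgeR steps were tested on simulated counts.

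The 8 genes and all gene lists were chosen with earlier results of these data known. Named genes were the 8, all other measured acyl-CoA thioesterases, the called gene with the largest rise and that with the largest fall in control mice in each other list (not all of which are printed), the 5 genes nearest to Them4, and Ucp1, Ppargc1a, Dio2 and Mcu as checks. Gene models and coding sequences were GENCODE M21 on GRCm38, promoter windows RefSeq on GRCm38.p6, and alignments were made with mafft 7.526.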

Additional observations from a re-analysis of the deposited data

Results flagged for a closer look

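In 56 groups of 5 or 6 mice, 1 for each of 14 acyl-CoA thioesterase genes in each of the 4 groups, a gap between the outermost mouse and the nearest of the others stood out by Dixon's test in 2. Chance flags about 1 in 20 such groups. Both concerned Acot9. In control mice at RT replicate 6 had 743.9 normalised counts, with the nearest of the others at 568.3, a gap of 0.756 of the whole range. In BAT-Mcu-KO mice at 4°C replicate 3 had 824.4, with the nearest of the others at 674.3, a gap of 0.781 of the range. Without the first of these mice the difference by cold of Acot9 in control mice was 0.16 in place of 0.08.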

How the results depend on the processing

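Of 2230 values recomputed under alternatives, 22 moved, all of them counts of genes that changed by over 1.5 times. The 2230 include values that an alternative could not move, such as a cold difference without a library of the other genotype. Log2 fold changes of the 8 genes moved by at most 0.21, less than the residual SD of each gene, which for differences near 0 is still a large ratio. Genes that passed for genotype at RT numbered 7, and 3 when the fit held only the groups compared and 20 with DESeq2, with 5 to 8 when each library was left out. Genes that passed for genotype at 4°C numbered 11, and 7 with limma without the trend, 2 with only those groups fitted, 27 with DESeq2 and 6 with edgeR. Leaving out each library gave 3 to 16, with 3 without control 4°C replicate 2, 16 without control 4°C replicate 1, 7 without control 4°C replicate 5 and 6 without BAT-Mcu-KO 4°C replicate 4. For the interaction, 0 genes passed in limma, 28 with DESeq2, and 0 to 1 when each library was left out (1 without control 4°C replicate 1). The cause of these shifts was not tested. None of the 8 thioesterases was among the genes called for genotype or interaction in any setting run.

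With the replicate number as a replicate block, 7 genes passed for genotype at 4°C in place of 11, and 7 at RT, 6610 for cold in control mice, 6376 for cold in BAT-Mcu-KO mice and 0 for the interaction. At 4°C 4 of 5 pairs of mice that share a number across genotypes had correlated deviations from their group means, with r over 0.1 (mean r = 0.21, lowest 0.0042), and 3 of 5 mice correlated best with their own number, a hint from the data of a shared factor at 4°C. In the other comparisons at most 2 pairs had r over 0.1 and 0 mice correlated best with their own number. As not every pair did so and the labels give no shared litter or day, the numbers were not taken to pair the mice.

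Across 280 recomputed differences by cold of the 8 genes in each genotype, 0 changed sign in BAT-Mcu-KO mice and 11 did in control mice. All 11 were of Acot1, Acot7 and Acot9, whose differences lay near 0. Many of the 280 could not change, so the count overstates how far the signs were tried. Leaving out a library of the other genotype keeps the difference, as do gene filters, dropping the trend and fitting only the groups compared. The difference of Acot2 in control mice fell below the threshold under quantile scaling (0.27), under scaling to the 75th percentile (0.35), when only the groups compared were fitted (0.45), and without control RT replicate 1 (0.39), control RT replicate 6 (0.40) or control 4°C replicate 1 (0.29), and in BAT-Mcu-KO mice under quantile scaling (0.34). That of Acot11 fell below it in control mice without control RT replicate 2, 3 or 4 or control 4°C replicate 4 or 5 (-0.61 to -0.49), and in BAT-Mcu-KO mice without BAT-Mcu-KO RT replicate 1, 2, 3 or 6 or 4°C replicate 4 (-0.58 to -0.46). In the carnitine shuttle list Cpt2 no longer passed in control mice without control RT replicate 1 or control 4°C replicate 4 or 5, which left 1 gene. Crat of that list passed as lower in BAT-Mcu-KO mice under quantile scaling and under scaling to the 75th percentile, which made 2 genes (limma adjusted p = 0.019 and 0.034). In control mice Crat passed under the latter scaling and without control RT replicate 5 or control 4°C replicate 3. In the acyl-CoA binding list Dbi no longer passed in BAT-Mcu-KO mice without RT replicate 2 or 4 or 4°C replicate 3, which left 1. Acot3 and Acot5 were left out by a filter that asks for a normalised count of at least 8 in every library, which left 3 of the other thioesterases that passed.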
